A study of Mus musculus with 4 samples.

Results

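The epidermal growth factor (EGF) receptor family, its ligands and a feedback inhibitor were examined for DNA methylation in hair matrix keratinocytes, dividing epithelial cells in the follicle bulb whose progeny build the hair. The set has 10 genes, chosen by name, of 21887 protein-coding genes. They are the receptors Egfr, Erbb2, Erbb3 and Erbb4, the ligands Tgfa, Areg, Ereg, Hbegf and Btc, and the inhibitor Errfi1. Every region of the authors' deposited table that overlapped a gene body or the 5 kb on either side of it was taken, which gave 317 of 484555 listed regions. Primary cells from mice at postnatal day 4.5 had been sorted for whole-genome bisulfite sequencing. The tested mice were Tet2/Tet3 DKO (double knockout, Krt14-Cre, 2 libraries), in which Cre is driven by the promoter of Krt14, a keratin gene of basal epithelium. They were set against WT mice (2 libraries), for which the labels do not say whether Cre or the floxed alleles were carried. TET proteins convert 5-methylcytosine to oxidised forms, from which the mark can be removed. Bisulfite sequencing counts 5-methylcytosine and its hydroxymethyl form together.

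EGF-family ligands are made as membrane-bound precursors, are cut free by ADAM proteases and bind ERBB receptors, which pair and activate the RAS-MAPK, PI3K-AKT and STAT pathways. In hair, the pathway is known for shaping the follicle. Mice that lack Tgfa, and mice with Egfr alleles of reduced function, have wavy coats and curly whiskers. Errfi1 encodes a protein that binds the kinase of the EGF receptor and blocks it.

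Each level below is the authors' mean over a region for a group of 2 libraries, in percent, and each difference is DKO minus WT in percentage points, from the authors' deposited table. The table has no values for single libraries and the read depth is unknown, so there is no replicate error and no test. The cells were sequenced in bulk and no RNA was measured, so a change within cells and a change in the mix of sorted cells cannot be told apart. The only measure of error is the spread estimate in the authors' deposited table, which neighbouring and distant regions can share. Its lowest value here, 3.20 points, recurred at Egfr and Erbb2, 81.5 Mb apart, so it need not be a spread measured at each region. A region that was at least 20 points higher in the DKO is called gained. Over the gained regions of the 10 genes this estimate ran from 3.20 to 4.68 points, and the differences were 5.24 to 13.8 times as large. Group identity rests on the order of genotypes in the table's title, and every direction would turn with the opposite order. The number of cytosine positions counts the strands of a CpG apart in most regions, and 17 of the 70 gained regions held 2 positions or fewer.

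All 10 genes held at least 1 gained region, against 64.4% of all protein-coding genes. The 70 gained regions were 22.1% of those listed in the 10 windows, close to the 22.9% of all listed regions, so the share itself is not a result about these genes. In the gained regions the median level was 75.7% in the DKO and 44.4% in the WT, against 76.3% in the DKO and 45.6% in the WT over all gained regions of the genome. Of the 70, 59 stood at 60% or more in the DKO, and 62 were between 20% and 60% in the WT. The same counts over all gained regions of the genome were not computed. Only 2 of the 317 regions were at least 10 points lower in the DKO (0.631%), against 2.54% of all listed regions, and both lay in Erbb4. A region this much lower was present in the windows of 8.5% of protein-coding genes. The bounds that the table sets on its statistic differ for negative and positive values, and regions with a higher DKO mean occur under both signs. Small differences in either direction are listed too. In all, 175 of the 317 regions had a higher mean in the DKO and 142 a lower one. Erbb4 weighs heavily in these pooled counts. It held 124 of the 317 regions, of which 22 were higher, 102 lower and 11 gained (8.87%).

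**Figure D1:**
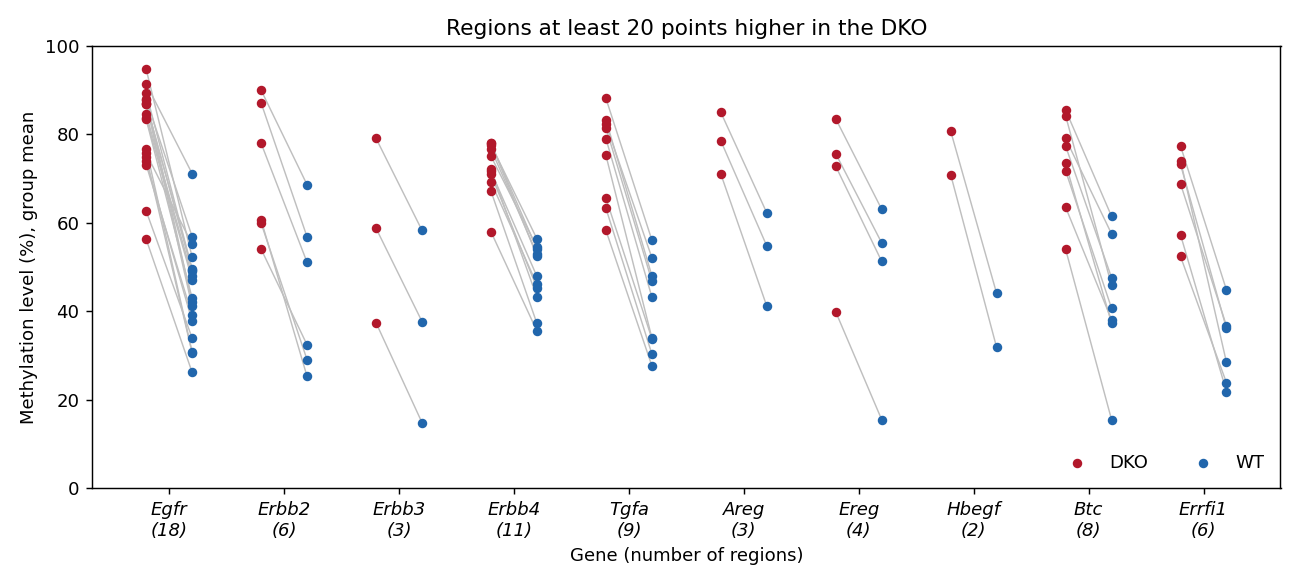
Methylation level (%) of the 70 gained regions, by gene, with the DKO group mean on the left, the WT group mean on the right and a line joining the region's values. Most Egfr regions stood above 70% in the DKO, while single regions of Erbb3 (37.4%) and Ereg (39.9%) were below 40% there.

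Low-methylated gene starts, taken as under 20% in both genotypes, differed by under 2 points between the genotypes. A start that was high in either genotype could not enter, so a small difference is favoured by the choice. Over 10462 low regions of the genome the median difference was 0.061 points. Of the 5 low-methylated starts, 4 had a gained region within 500 bp, but the genome's share of low regions at that distance was not computed. RefSeq promoter windows (GRCm38.p6, 250 bases before to 50 after a start) were found for 7 of the 10 genes, 8 windows in all, and none for Erbb3, Ereg and Hbegf. Of these, 5 windows, at Egfr, Erbb2, Areg, Btc and the downstream start of Errfi1, overlapped a listed region with under 20% methylation in both genotypes. No gained region overlapped any of the 8 windows. The 250 bases before these 5 starts are shown for the CG content of low-methylated starts. The low region covers only the last 10 of them at Btc. They are written 5′ to 3′ on the gene's strand, with each CG, the dinucleotide that is methylated in mammals, in capitals.

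Egfr, chr11:16751953-16752202, plus strand: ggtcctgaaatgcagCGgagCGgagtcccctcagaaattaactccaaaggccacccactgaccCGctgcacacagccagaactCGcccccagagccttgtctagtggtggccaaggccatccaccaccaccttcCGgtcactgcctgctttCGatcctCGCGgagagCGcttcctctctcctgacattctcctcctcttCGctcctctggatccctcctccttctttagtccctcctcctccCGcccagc
Erbb2, chr11:98412234-98412483, plus strand: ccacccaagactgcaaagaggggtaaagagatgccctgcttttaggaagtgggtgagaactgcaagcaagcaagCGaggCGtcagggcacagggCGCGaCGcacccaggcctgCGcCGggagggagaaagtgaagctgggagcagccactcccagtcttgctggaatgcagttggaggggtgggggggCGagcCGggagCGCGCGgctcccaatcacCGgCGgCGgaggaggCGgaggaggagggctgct
Areg, chr5:91139349-91139598, plus strand: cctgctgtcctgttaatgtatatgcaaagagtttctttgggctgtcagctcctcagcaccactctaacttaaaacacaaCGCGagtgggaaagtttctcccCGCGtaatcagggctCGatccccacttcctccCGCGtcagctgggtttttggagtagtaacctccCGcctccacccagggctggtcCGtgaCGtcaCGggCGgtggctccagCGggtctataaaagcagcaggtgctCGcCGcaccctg
Btc, chr5:91402995-91403244, minus strand: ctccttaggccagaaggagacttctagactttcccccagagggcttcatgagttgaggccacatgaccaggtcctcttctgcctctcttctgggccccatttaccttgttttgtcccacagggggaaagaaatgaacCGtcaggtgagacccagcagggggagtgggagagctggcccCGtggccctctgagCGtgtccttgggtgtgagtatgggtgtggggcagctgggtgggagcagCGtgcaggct
Errfi1, chr4:150854820-150855069, plus strand: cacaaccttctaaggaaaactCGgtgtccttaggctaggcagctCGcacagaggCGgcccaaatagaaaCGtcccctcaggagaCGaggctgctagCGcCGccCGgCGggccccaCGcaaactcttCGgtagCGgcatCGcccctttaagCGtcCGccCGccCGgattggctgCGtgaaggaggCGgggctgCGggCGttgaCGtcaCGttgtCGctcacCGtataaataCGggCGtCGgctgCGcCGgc

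These stretches differed in CG content. Errfi1 held 30 CG in the 250 bases, Erbb2 16, Areg 15, Egfr 11 and Btc 4. Over the full 300 bases the count was 41 for Errfi1, 21 for Erbb2, 21 for Areg, 15 for Egfr and 5 for Btc, against a median of 7 and an interquartile range of 3 to 20 over 32851 RefSeq promoter windows. The windows with no listed region were those of Tgfa (24 CG), Erbb4 (17 CG) and the upstream start of Errfi1 (2 CG). Searched on both strands of the 300 bases, the AP-1 word TGACTCA (reverse complement TGAGTCA) was in 0 of the 8 windows and in 5.20% of all windows. The GC box GGGCGG (reverse complement CCGCCC, which itself holds a CG) was in 4 of the 8 and in 35.7% of all. TATAAA was in 2 of the 8, at Areg and the downstream start of Errfi1, and in 13.6% of all windows. These are matches of letters only.

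The region across the Egfr start (chr11:16751968-16754135, 215 positions) was at 4.48% in the DKO and 3.87% in the WT. That across the Erbb2 start (chr11:98412018-98413701, 195 positions) was at 3.41% in the DKO and 2.91% in the WT, and that across the Areg start (chr5:91139128-91140010, 112 positions) at 5.20% in the DKO and 4.77% in the WT. Each differed by less than its spread estimate. Likewise the Errfi1 start (chr4:150854311-150856047, 252 positions) was at 4.48% in the DKO and 4.42% in the WT, and the Btc start (chr5:91402411-91403004, 29 positions) at 6.29% in the DKO and 7.96% in the WT. The nearest gained region lay 349 bp from the low region of Areg, 452 bp from that of Btc, 469 bp from that of Egfr and 480 bp from that of Erbb2. At Errfi1 the distance was 6977 bp, to a gained region outside the gene's window, and its low region also overlaps the neighbouring gene 1700045H11Rik. Over the 9 low regions in the 10 windows the median distance was 532 bp, against 1404 bp over 10462 low regions of the genome, of which 73.6% lay within 5 kb of a gained region (7 of the 9 here).

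Egfr, the receptor for Tgfa, Areg and the other EGF-type ligands, had the most gained regions of the set, 18 of 76 listed. That is 23.7%, close to the 22.9% of all listed regions. Per 10 kb of window Egfr had 1.05 gained regions, below the median of 1.21 for the 10 genes. In 69 of the 76 the mean was higher in the DKO, and the listed regions covered 20.6% of the Egfr window. The gene lies at chr11:16752203-16913907 and is 161.7 kb long. In the gained regions of Egfr the level ranged from 56.3% to 94.7% in the DKO (median 84.1%) and from 26.2% to 71.1% in the WT (median 45.1%). These DKO and WT ranges overlapped across regions, but within each region the DKO was higher by 20.3 to 46.0 points.

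Of the 10 listed regions that start within 20 kb after the Egfr start, 7 were gained. The share this near other gene starts was not computed, and the 20 kb bound was used for Egfr alone. The first of the widest differences lay 3040 bp into the gene (chr11:16755243-16755244, 2 positions), at 87.0% in the DKO and 41.1% in the WT. Next to it, chr11:16755691-16755917 (10 positions) was at 94.7% in the DKO and 52.2% in the WT. The longest gained region of Egfr began 12595 bp into the gene (chr11:16764798-16766984, 44 positions) and was at 74.8% in the DKO and 30.6% in the WT, a difference of 44.2 points. The 7 gained regions within these 20 kb ran from 56.3% to 94.7% in the DKO and from 26.2% to 52.2% in the WT. Being chosen by a gain of at least 20 points favours such levels. The other listed regions there were at 88.9%, 82.1% and 83.4% in the DKO and 72.0%, 66.0% and 77.2% in the WT. Farther in, 46506 bp from the start, chr11:16798709-16799020 (6 positions) was at 76.7% in the DKO and 30.8% in the WT, the widest difference of Egfr at 46.0 points. A further pair, chr11:16814798-16815095 (12 positions, 88.0% in the DKO and 42.1% in the WT) and chr11:16826577-16827617 (26 positions, 83.4% in the DKO and 43.0% in the WT), also overlaps the annotated non-coding gene Egfros. The largest decrease in Egfr was 3.73 points, at chr11:16887807-16887978 (90.6% in the DKO, 94.4% in the WT).

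Beyond the gained regions, 25 more regions of Egfr were 10 to 20 points higher in the DKO, while the other 9 genes held 9 such regions together. The authors' deposited table also lists regions for a positive statistic, 241 of the 317, and these include regions whose DKO mean is the higher. In Egfr 59 such regions had a median level of 87.5% in the DKO and 77.8% in the WT, and a median difference of 8.95 points. Among 5454 protein-coding genes with at least 10 such regions, the median difference was -0.61 points at the middle gene, and 16 genes, Egfr included, reached the Egfr value or more. The same quantity was 3.27 points for Tgfa (25 regions), -1.77 points for Btc (13 regions) and -4.16 points for Erbb4 (111 regions). Errfi1 had only 6 such regions, all higher in the DKO, with a median of 6.55 points. This comparison was chosen after the values were seen and has no test.

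The rise over the listed regions of Egfr was not even. The gene was divided into 3 stretches of 53.9 kb. In the stretch nearest the start, 26 of 26 listed regions had the higher mean in DKO cells, 9 of them gained, and the positive-statistic regions differed by a median of 15.6 points (81.4% in the DKO, 65.8% in the WT). In the middle stretch, 26 of 27 regions were higher and 7 were gained, with a median of 9.35 points for the positive-statistic regions (87.9% in the DKO, 76.6% in the WT). In the last stretch, 12 of 17 were higher, 1 was gained, and that median was 1.74 points (88.1% in the DKO, 86.7% in the WT). The WT level was thus lowest in the stretch nearest the start and close to the DKO level in the last.

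**Figure D2:**
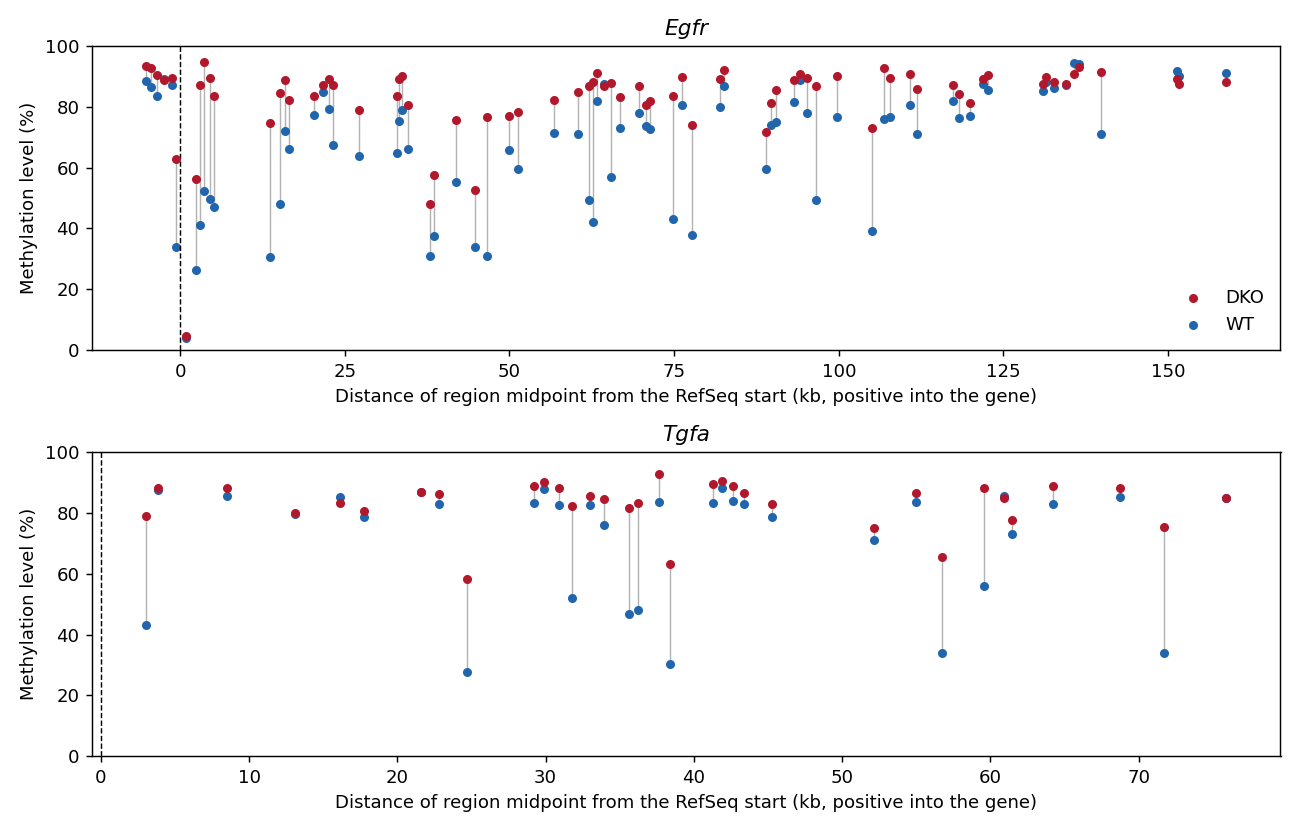
Methylation level (%) of all listed regions in the windows of Egfr (above) and Tgfa (below), against the distance of the region's midpoint from the RefSeq start (kb). Red points are DKO group means, blue points WT group means, and a grey line joins the values of a region. In Egfr the low region at the start is alike in both genotypes and differences narrow towards the far end, while in Tgfa 9 separate regions differ between stretches that are high in both.

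Erbb2, the receptor with no known ligand of its own that pairs with the other ERBB proteins, had 6 gained regions of 13 listed (chr11:98412484-98437716). Inside the gene, chr11:98419266-98419736 (15 positions) was at 60.6% in the DKO and 25.3% in the WT, the widest difference of Erbb2 at 35.4 points. The region 2011 bp after the start (chr11:98414495-98414937, 6 positions) was at 59.9% in the DKO and 29.0% in the WT, and that 946 bp before it (chr11:98411225-98411538, 12 positions) at 78.0% in the DKO and 51.1% in the WT. Gained regions therefore lay on either side of the low start of Erbb2. Of the others, chr11:98420050-98420155 was at 87.1% in the DKO and 56.8% in the WT, and chr11:98428421-98429080 at 90.0% in the DKO and 68.6% in the WT. The sixth, 288 bp past the gene (chr11:98438004-98438166, 54.0% in the DKO, 32.4% in the WT), lies inside the neighbouring gene Mien1. A region of 101 positions in the body of Erbb2 (chr11:98422472-98425208) was high in both genotypes, at 92.8% in the DKO and 93.1% in the WT. The largest decrease was 2.60 points, at chr11:98408876-98410286 (39.3% in the DKO, 41.9% in the WT).

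Erbb3, a neuregulin receptor with little kinase activity of its own, had 3 gained regions of 6 listed (chr10:128567523-128589635), and 1 of the 3 lies in the neighbouring gene Pa2g4 (chr10:128563908-128564193, 79.1% in the DKO, 58.3% in the WT). The widest region inside Erbb3 (chr10:128586998-128587990, 22 positions) was at 37.4% in the DKO and 14.8% in the WT, a difference of 22.6 points, and was below 40% in both genotypes. A single position beside it (chr10:128586578) was at 58.8% in the DKO and 37.7% in the WT. At 573 bp from that wider region, chr10:128588563-128589074 (14 positions) at the end of the gene with the higher coordinate was low in both, at 5.29% in the DKO and 7.48% in the WT. That difference of -2.19 points was the largest decrease in the window. The low region chr10:128565243-128565588 (58 positions), in Pa2g4, was at 2.51% in the DKO and 3.03% in the WT.

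Erbb4, a receptor for neuregulins and some EGF-type ligands, had the lowest share of its window covered by gained regions among the 10 genes. It is 1076.7 kb long (chr1:68031884-69108576) and held 124 listed regions, of which 11 were gained and 102 had a lower mean in the DKO. The 111 regions with a positive statistic had a median level of 69.9% in the DKO and 73.6% in the WT. The gained regions of Erbb4 sat in 4 groups, and 8 of the 11 were in the 358.9 kb nearest its start. In the group closest to it, chr1:68969508-68969821 (6 positions) was at 72.1% in the DKO and 43.2% in the WT, and the single position chr1:68970267 at 67.2% in the DKO and 37.2% in the WT, 29.9 points apart. Farther in, within the annotated non-coding gene Gm51744, 5 gained regions stood at 75.1% to 78.0% in the DKO and 52.5% to 56.4% in the WT, and the 3 largest differences among them were 25.4, 23.9 and 23.7 points. Far into the gene, chr1:68074061-68075299 (16 positions) was at 71.0% in the DKO and 45.3% in the WT. The 2 regions at least 10 points lower held 2 positions and 1 position. They were chr1:68979445-68979578 (68.2% in the DKO, 79.2% in the WT) and chr1:68519434 (53.5% in the DKO, 63.9% in the WT). A low region 1369 bp after the start (chr1:69106297-69106690, 48 positions) was at 2.82% in the DKO and 3.54% in the WT.

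**Figure D3:**
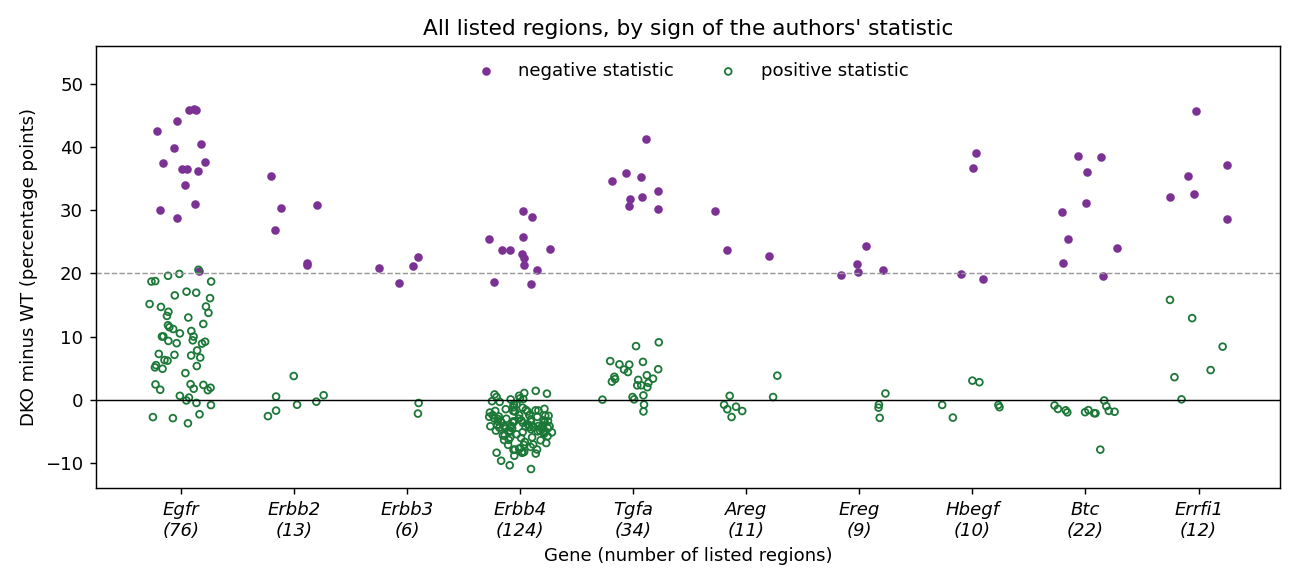
Difference in methylation (DKO minus WT, percentage points) for all 317 listed regions by gene, as filled points where the statistic in the authors' deposited table is negative and open points where it is positive. The dashed line marks 20 points. Open points lie mostly above 0 in Egfr (median 8.95), Errfi1 (median 6.55, 6 points) and Tgfa (median 3.27). They lie mostly below 0 in Erbb4 (median -4.16), all below 0 in Btc (median -1.77), and near 0 in Erbb2, Areg, Ereg and Hbegf.

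Tgfa, the ligand whose loss gives wavy hair, had 9 gained regions of 34 listed, all inside the gene (chr6:86195038-86275744). The longest was chr6:86265210-86268593, 3384 bp with 72 positions, at 75.3% in the DKO and 34.0% in the WT. Its difference of 41.3 points was also the widest of Tgfa, 11.0 times the spread estimate in the authors' deposited table. At 2958 bp after the start, chr6:86198180-86198368 (12 positions) was at 79.1% in the DKO and 43.2% in the WT. In the middle of Tgfa, gained regions came close together. There chr6:86231220-86231644 (6 positions) was at 83.3% in the DKO and 48.0% in the WT, chr6:86230839-86230840 (2 positions) at 81.5% in the DKO and 46.9% in the WT, and chr6:86233481-86233743 (8 positions) at 63.3% in the DKO and 30.4% in the WT. Nearer the far end, chr6:86254680-86254868 (7 positions) was at 88.2% in the DKO and 56.1% in the WT. All 9 differences in Tgfa lay between 30.2 and 41.3 points. The other 25 regions of Tgfa all differed by less than 10 points, with medians of 86.5% in the DKO and 83.4% in the WT, and the largest decrease was 1.85 points (chr6:86210668-86211970, 83.3% in the DKO, 85.2% in the WT). Tgfa lies 2.74 Mb from Tet3, which is deleted in the DKO.

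Areg, Ereg and Btc, which encode amphiregulin, epiregulin and betacellulin, are neighbours on chromosome 5, with 45.95 kb between Ereg and Areg and 208.8 kb between Areg and Btc. Areg (chr5:91139599-91148432) had 3 gained regions of 11 listed. The widest, 2869 bp after the start (chr5:91142468-91143312, 25 positions), was at 71.0% in the DKO and 41.2% in the WT. At 760 bp after the start, chr5:91140359-91140532 (10 positions) was at 78.5% in the DKO and 54.8% in the WT, and the single position chr5:91143404 was at 85.0% in the DKO and 62.3% in the WT. Between them, chr5:91141390-91141769 (11 positions) did not follow, at 50.3% in the DKO and 51.1% in the WT. The largest decrease at Areg was 2.74 points (chr5:91150222-91150241, 79.7% in the DKO, 82.5% in the WT).

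Ereg (chr5:91074617-91093649) had 4 gained regions of 9 listed, and all 4 differences were small for the set, from 20.2 to 24.4 points. The widest (chr5:91075824-91076245, 14 positions) was at 39.9% in the DKO and 15.5% in the WT. Next to it, chr5:91076608-91076781 (6 positions) was at 75.6% in the DKO and 55.5% in the WT. The other two held 3 and 2 positions, at 83.5% in the DKO and 63.1% in the WT (chr5:91083189-91083192) and 72.8% in the DKO and 51.3% in the WT (chr5:91087637-91087638). The largest decrease at Ereg was 2.87 points (chr5:91078938-91079899, 69.8% in the DKO, 72.7% in the WT).

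Btc (chr5:91357261-91402994) had 8 gained regions of 22 listed and the largest covered share of the set. A cluster about 33 to 38 kb after the start held 4 of the 8. Within it, chr5:91365399-91367688 (95 positions, 2290 bp) was at 71.8% in the DKO and 40.7% in the WT, chr5:91369154-91369876 (18 positions) at 84.2% in the DKO and 45.9% in the WT, and chr5:91364540-91364776 (18 positions) at 73.4% in the DKO and 37.3% in the WT. The fourth, chr5:91365096-91365097 (2 positions), was at 54.0% in the DKO and 15.5% in the WT, the widest difference of Btc at 38.5 points. Gained regions also flanked the low start of Btc. The region 1188 bp after the start (chr5:91401556-91401806) was at 63.5% in the DKO and 38.1% in the WT, and that 462 bp before it (chr5:91403456-91404616, 25 positions) at 85.5% in the DKO and 61.5% in the WT. Past the other end of Btc, chr5:91352708-91352882 (10 positions) was at 77.4% in the DKO and 47.6% in the WT. All 13 regions of Btc with a positive statistic were lower in the DKO, down to -7.90 points (chr5:91387777, 71.6% in the DKO, 79.5% in the WT).

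Hbegf, the ligand known for keratinocyte migration in wound closure, had 2 gained regions of 10 listed (chr18:36504927-36515805), both wide in difference. One (chr18:36505906-36506450, 19 positions) was at 70.9% in the DKO and 31.8% in the WT, and the other (chr18:36508723-36509504, 28 positions) at 80.7% in the DKO and 44.0% in the WT. The 39.1 and 36.7 points between genotypes were 10.9 and 9.80 times the spread estimates in the authors' deposited table. Just under the bound of 20 points, chr18:36513947-36514005 (4 positions) was at 36.0% in the DKO and 16.1% in the WT, and chr18:36513482-36513492 (3 positions) at 68.1% in the DKO and 49.0% in the WT. The other 6 regions of Hbegf differed by less than 5 points, down to -2.83 points (chr18:36507020-36507586, 87.8% in the DKO, 90.6% in the WT).

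Errfi1, the feedback inhibitor, had 6 gained regions of 12 listed (chr4:150853796-150868889), and none of its 12 regions was lower in the DKO, the sole such gene of the 10. Within the gene, chr4:150865900-150866430 (30 positions) was at 74.1% in the DKO and 28.4% in the WT, a difference of 45.6 points. Close by, chr4:150865181-150865182 (2 positions) was at 57.3% in the DKO and 21.9% in the WT. The remaining 4 lay at or past the far end of Errfi1. They were chr4:150869225-150869420 (73.2% in the DKO, 36.1% in the WT), chr4:150868780-150868885 (77.4% in the DKO, 44.8% in the WT), chr4:150873488-150873759 (68.8% in the DKO, 36.7% in the WT) and chr4:150873003-150873049 (52.4% in the DKO, 23.8% in the WT). These 4 held 4 to 6 positions each. Among them sat a long low region outside the gene (chr4:150871005-150872471, 52 positions), at 13.2% in the DKO and 9.63% in the WT. Per 10 kb of window, Errfi1 had 2.39 gained regions, the most of the 10 genes, against a median of 1.21 for the 10 and 0.453 for all protein-coding genes. It did not keep first place with regions of at least 10 positions, of which Errfi1 had 1 gained, nor within gene bodies, where it had 3 gained regions and the shorter Areg also had 3.

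The share of the window covered by gained regions put the genes in the order Btc (8.69%), Tgfa (7.10%), Hbegf (6.36%), Erbb2 (6.12%), Areg (5.42%), Errfi1 (4.60%), Egfr (4.33%), Erbb3 (3.99%), Ereg (2.07%) and Erbb4 (0.198%). Without values per library, neighbours in this order cannot be told apart by any error. The median of the 10 was 5.01%, against 1.29% over all protein-coding genes. Btc lay above 93.1% of protein-coding genes and Erbb4 above 38.8%. Windows differ in length, from 18.8 kb for Areg to 1086.7 kb for Erbb4, and the listed regions together cover 2.63% of the Erbb4 window and 28.1% of the Hbegf window. Methylation outside listed regions is not analysed here. By size of gain the genes divided otherwise. The widest gain was at least 30 points in 6 genes (Egfr, Erbb2, Tgfa, Hbegf, Btc and Errfi1) and at most 29.9 points in Erbb3, Erbb4, Areg and Ereg. With 10 kb on either side, it was 33.9 points at Erbb3 and 32.5 points at Ereg, so these 2 genes then also passed 30 points.

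**Figure D4:**
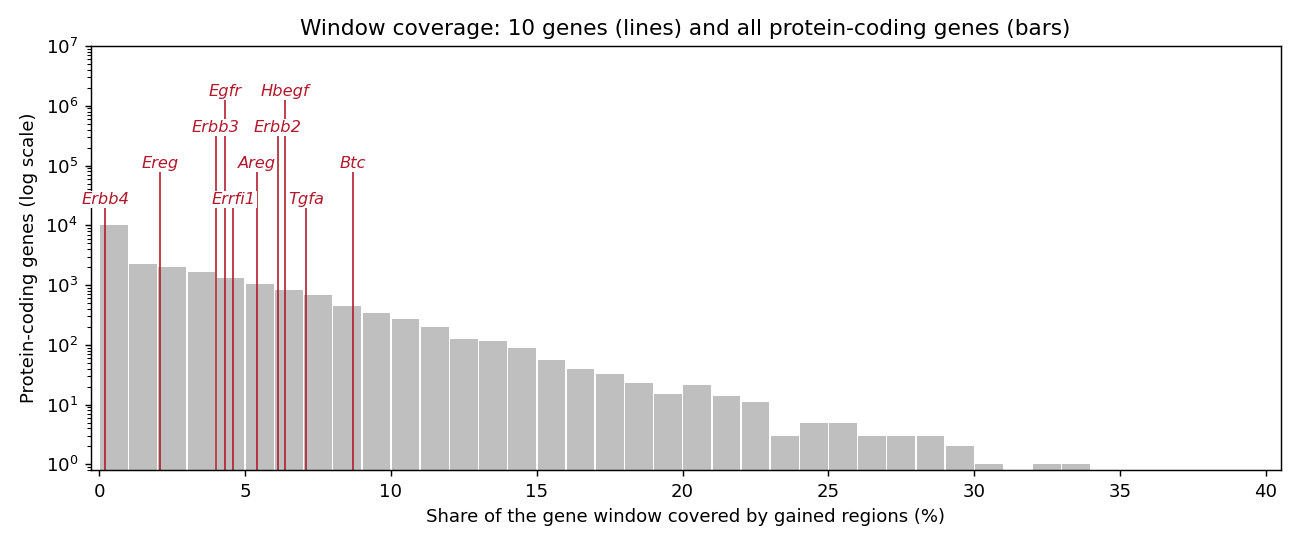
Share of the gene window (gene body and 5 kb on either side) covered by gained regions (%), as a histogram of all protein-coding genes on a log count axis, with a red line for each of the 10 genes. Erbb4 sits at 0.198% and the other 9 between 2.07% and 8.69%.

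The gained regions of the 10 genes were mostly internal, but so were the listed regions, so this is not a result about the gained ones. Of the 70, 57 lay inside a gene more than 1 kb from its ends, 8 within 1 kb of an end and 5 in the flanks, against 273, 19 and 25 of the 317 listed regions in these places. Their median width was 231.5 bp and their median number of positions 6, below the 345 bp and 11 positions of all gained regions in the genome. At the 5 kb bound, the last region inside the Egfr window, 4996 bp before the gene, was at 93.5% in the DKO and 88.4% in the WT, and the nearest outside it, 5021 bp past the other end, at 80.5% in the DKO and 82.6% in the WT. Beyond the windows of Erbb2, Areg and Btc, the nearest regions were ones that would have been gained, at 5182 bp (72.2% in the DKO, 39.0% in the WT), 5228 bp (74.4% in the DKO, 51.0% in the WT) and 5548 bp (80.2% in the DKO, 57.4% in the WT).

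Other genes of the pathway were described the same way, from 6 lists with 63 genes. A gained region lay in 58 of the 63 windows, against 64.4% of protein-coding genes, and a region at least 10 points lower in 5, against 8.5%. The median covered share was 4.05%. All 6 other ErbB ligands held a gained region. Epgn (epigen), 39.4 kb from Ereg, had 19.3% of its window covered. A region in the flank of Epgn, outside the gene, was at 70.8% in the DKO and 28.6% in the WT. Nrg2, a neuregulin, had 6.48% covered. All 5 sheddases and their partners held a gained region too, led by Rhbdf2 (14.5%) and Rhbdf1 (13.1%), which encode iRhom partners of the protease ADAM17. The region of Rhbdf2 with the largest difference was at 70.6% in the DKO and 20.0% in the WT.

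All 17 adaptor and RAS-MAPK genes held a gained region, with a median covered share of 2.67%, and the largest shares were those of the GTPase gene Nras (8.80%) and the docking protein gene Gab1 (8.14%). All 9 PI3K-AKT and STAT genes held 1, with a median of 4.82%, led by Stat3 (9.03%) and Pik3r1 (7.64%), the regulatory subunit of PI3K. The region of Pik3r1 with the largest difference was at 89.1% in the DKO and 30.2% in the WT. Of 19 negative regulators 14 held a gained region. Spry1, an inhibitor of RAS-MAPK signalling, had 21.6% of its window covered and Socs3, a cytokine signalling inhibitor, 17.7%. Lrig2, Spred3, Dusp4, Dusp5 and Rasa1 held none, and their covered share was 0. The 7 immediate targets all held a gained region and had the highest list median, 10.2%, led by Junb (29.7%), an AP-1 factor, and Ccnd1 (19.4%), which encodes cyclin D1. The region with the largest difference at Junb lay in the flank, outside the gene, at 51.6% in the DKO and 15.5% in the WT. These lists are short, their windows differ in length and no difference between them was tested.

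**Figure D5:**
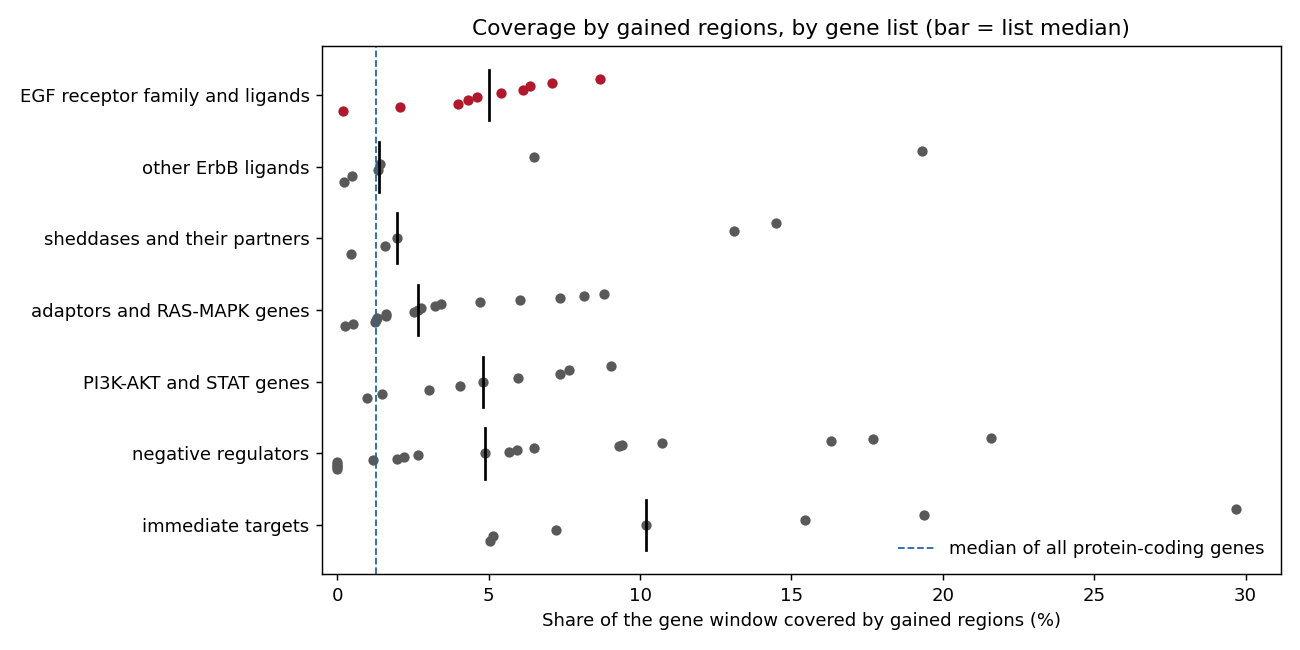
Share of the gene window covered by gained regions (%), 1 point per gene, for the EGF receptor family and ligands (red) and 6 other lists of pathway genes (grey), with a black bar at each list's median and a dashed line at the median of all protein-coding genes (1.29%). The list medians run from 1.38% for the other ErbB ligands to 10.2% for the immediate targets.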

How the data were processed

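Whole-genome bisulfite libraries (2 DKO, 2 WT) were grouped by the genotype in the labels, which do not say whether libraries came from separate animals. Trim Galore, Bismark and GRCm38 (mm10) are named in the submitters' processing notes. How regions were called and filtered is not given in the sources used here. Per the file headers, the deposited table gives for each region a mean methylation level per group as a fraction, multiplied to percent here, and a statistic, treated as a score, with a spread estimate. It has no p-value, read counts or values per library, so the depth is unknown and the planned model on reads was not run.

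Gene positions came from RefSeq (GRCm38.p6), with all 73 list genes matched by symbol. The gene table has no strand or exons, so places are relative to gene ends, and starts come from the RefSeq promoter windows. Members, lists and bounds were chosen with earlier results of these data known. The text names all 10 members, up to 6 gained regions (7 at Btc, where 1 beside the start was added) and the largest decrease of each, and the 2 genes of each pathway list with the largest covered share. Other genes, regions and comparisons named were chosen after their values were seen. Overlap counting was tested on simulated regions. Python 3.11.15, numpy 2.4.6, pandas 2.3.3 and matplotlib 3.10.9 were used.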

Additional observations from a re-analysis of the deposited data

How the results depend on the processing

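All results are counts, levels and shares with no test. No paired analysis was possible because the table holds group means only, and leaving out a replicate could not be run for the same reason. The largest gain per gene was recomputed with at least 10 positions per region, gene bodies alone, 10 kb flanks and midpoints. In 37 cases it was unchanged or moved by less than its spread estimate, mostly because the same region remained the largest. The other 3 were Erbb3 (33.9 in place of 22.6 points) and Ereg (32.5 in place of 24.4 points) with 10 kb flanks, and Erbb4 (25.7 in place of 29.9 points) with at least 10 positions. With a minimum gain of 30 points, the gained regions were 38 in place of 70 and the members holding 1 were 6 in place of 10. With at least 10 positions, gained regions were 26, listed regions 123 in place of 317 and regions at least 10 points lower 0 in place of 2, and all 10 genes still held a gained region. A minimum loss of 5 points gave 37 lower regions and 1 of 20 points gave 0. Gained regions were 104 with a minimum gain of 10 points, 60 in gene bodies alone, 87 with 10 kb flanks, 70 by midpoints and 51 when merged within 500 bp. Under the first 4 of these, all 10 genes held a gained region and the median covered share stayed within 1.5 times, and listed and lower regions were recounted for gene bodies (285 and 2) and 10 kb flanks (356 and 2). Per gene, 20 of 60 counts of gained regions moved further than that. Unknown depth limits every value, most of all the regions of 1 or 2 positions.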
